A study of Mus musculus with 2 samples.

Results

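Accessible chromatin around 10 CC chemokine genes was compared between colonic macrophages lacking Tle4 and control macrophages. The genes are Ccl2, Ccl7, Ccl12 and Ccl8 in a first cluster on mouse chromosome 11, Ccl5, Ccl9, Ccl6, Ccl3 and Ccl4 in a second cluster on the same chromosome, and Ccl24 on chromosome 5. The members were taken by gene name, and every deposited peak overlapping the RefSeq span of a gene and 10 kb on either side was counted as theirs. This gave 37 of 128129 Tle4cKO peaks and 41 of 128737 WT peaks. Gene spans came from RefSeq (GRCm38.p6), which listed all 10 names, and positions are in mm10 on chromosome 11 unless another is named. Below and above a gene mean towards lower and higher coordinates.

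ATAC-seq, in which the transposase Tn5 places sequencing adapters in open DNA, was run on macrophages of the colon, sorted as cells with CD64, little Ly6C and no Siglec-F. The Tle4cKO library came from Tle4f/f Lyz2-Cre mice and the WT library from Lyz2-Cre mice, so that both carry the Cre. Lyz2-Cre is expressed from the lysozyme 2 locus in myeloid cells, neutrophils and monocytes included, and the labels do not say which stretch of Tle4 it deletes, so that peaks there give no check of the deletion. The mice were C57BL/6 males aged 18.9 weeks with no treatment named, and the cells of 2 mice were pooled for each of the 2 libraries, sorted at the same time. With 1 library per genotype no value has a replicate check and no test between genotypes was possible.

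CC chemokines are small secreted proteins that bind G-protein-coupled receptors on leukocytes and draw them into tissue. Ligands of CCR2 recruit the blood monocytes from which most macrophages of the adult mouse colon are renewed, and ligands of CCR1 act on monocytes, T cells and other leukocytes. TLE4 is a Groucho-type corepressor that binds no DNA itself and is brought to genes by factors such as RUNX, HES and TCF/LEF proteins.

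The libraries differed in height throughout. The median pileup, the height of stacked reads or fragments at a peak's summit as deposited, was 20 in Tle4cKO and 28 in WT over all peaks. Whether reads or fragments were counted is not stated. Over 92328 pairs, peaks of both lists that are each other's highest overlapping peak, the median ratio of Tle4cKO to WT was 0.741. No scaling between the libraries is recorded. Ratios below are therefore also given relative to the median ratio of pairs of like summed pileup (50 classes), as a relative log2 ratio in which 0 is the typical pair. In both libraries 7 of 7 macrophage marker genes (Csf1r, Fcgr1, Adgre1, Cx3cr1, Mertk, C1qa and Spi1) had a peak within 1000 bp of a gene end. Of 46 marker genes of 11 other cell types, 28 had such a peak in Tle4cKO and 34 in WT, all 4 B cell markers in each library among them. Of 21887 protein-coding genes, 14298 had one in Tle4cKO and 14492 in WT, and 63.3% had one in both. The counts for other cell types are near that share, so that a gene-end peak alone does not set these cell types apart.

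Promoter sequence was at hand for 5 of the 10 genes. The 250 bases before the start of 4 of them are shown, because their peaks span the range found at these genes. The stretch of Ccl3 lies under the strongest peak, that of Ccl12 under the peak with the highest summed pileup of its cluster, that of Ccl9 under a broad peak whose summit lies inside the gene, and that of Ccl8 under none. Sequences are from RefSeq (GRCm38.p6), written in the direction of the gene, and capitals mark every match to 8 motifs searched on both strands: the TATA box as TATAAA, AP-1 as TGANTCA, RUNX as TGTGGT, PU.1 as AGGAAGT, TCF/LEF as CTTTGA, C/EBP as TTGCNNAA, and the kappaB and IRF motifs. The stretches are chr11:83649379-83649628 on the minus strand for Ccl3, chr11:82101595-82101844 on the plus strand for Ccl12, chr11:83578637-83578886 on the minus strand for Ccl9 and chr11:82114935-82115184 on the plus strand for Ccl8.
Ccl3: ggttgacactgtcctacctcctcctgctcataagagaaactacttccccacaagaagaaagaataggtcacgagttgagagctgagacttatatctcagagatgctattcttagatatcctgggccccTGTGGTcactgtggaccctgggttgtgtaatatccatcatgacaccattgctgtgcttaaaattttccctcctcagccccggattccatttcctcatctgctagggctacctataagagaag
Ccl12: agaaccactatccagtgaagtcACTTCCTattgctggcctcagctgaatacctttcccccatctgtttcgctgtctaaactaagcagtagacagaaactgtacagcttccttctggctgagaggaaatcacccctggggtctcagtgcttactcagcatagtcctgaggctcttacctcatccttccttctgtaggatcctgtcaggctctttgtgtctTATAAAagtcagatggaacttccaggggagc
Ccl9: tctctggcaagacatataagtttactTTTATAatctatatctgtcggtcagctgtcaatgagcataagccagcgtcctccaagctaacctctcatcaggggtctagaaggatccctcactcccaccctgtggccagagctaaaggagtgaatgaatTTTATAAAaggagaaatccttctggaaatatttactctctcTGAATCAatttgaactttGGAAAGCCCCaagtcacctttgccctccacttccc
Ccl8: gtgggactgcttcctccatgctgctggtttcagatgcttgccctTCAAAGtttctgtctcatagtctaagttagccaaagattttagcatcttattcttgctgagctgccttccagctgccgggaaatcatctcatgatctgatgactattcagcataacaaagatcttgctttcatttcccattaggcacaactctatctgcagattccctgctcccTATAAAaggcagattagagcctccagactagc

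A TATA box match lay 31 to 26 bases before the start of Ccl12 and 32 to 27 bases before that of Ccl8. At Ccl9 matches lay at 92 to 87 and 224 to 219 bases; the nearer one reads on both strands, and the overlapping letters are printed as 1 run. Such a match is found in 12.4% of 32851 promoter stretches of the same length. Ccl9 also held an AP-1 match at 53 to 47 bases and a kappaB match at 35 to 26 bases, motifs that occur in 6.75% and 3.90% of the stretches. A RUNX match lay 122 to 117 bases before the start of Ccl3 (14.0% of stretches). A TCF/LEF match lay 206 to 201 bases before that of Ccl8 (13.8%). PU.1 matches lay at 228 to 222 bases at Ccl12 and at 48 to 42 bases at Ccl6 (7.69%). The C/EBP and IRF motifs (9.56% and 2.98%) were not matched in the 5 stretches. A match describes these letters only and is not evidence of binding.

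Most accessible regions at the CC chemokine genes were found in both libraries, as is usual for peaks of their strength. Of their Tle4cKO peaks 1 of 37 overlapped no WT peak (2.70%, 95% Wilson interval 0.479% to 13.8%), where 23.5% of all Tle4cKO peaks did. Of their WT peaks 6 of 41 overlapped no Tle4cKO peak (14.6%, 6.88% to 28.4%), where 27.1% of all WT peaks did. These intervals cover counting error only. Peaks at these genes were mostly strong, with a median at the 78.8th percentile of the Tle4cKO list and the 77.2nd of the WT list, and weak peaks are more often in 1 list. Among peaks below the median pileup of their list, 1 of 4 chemokine peaks in Tle4cKO and 4 of 7 in WT were in 1 list, beside 45.6% and 50.8% of all peaks of that class. Between the median and the upper quartile 0 of 8 in Tle4cKO and 2 of 9 in WT were in 1 list, beside 3.22% and 7.44%. At or above the upper quartile 0 of 25 in Tle4cKO and 0 of 25 in WT were, beside 0.313% and 0.518%. The low shares over all member peaks therefore do not set these genes apart from peaks of like strength.

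No pair at the CC chemokine genes moved 1.5-fold in either direction relative to pairs of like pileup. Their peaks formed 35 pairs, of which 12 lie in the window of more than 1 gene. None was at least 1.5-fold higher in Tle4cKO, where 3.76% of all pairs were, and none at least 1.5-fold lower, where 3.67% were. At those shares 35 pairs would hold about 1 of each, so that a count of 0 is close to the background. The shares cover pairs of every strength. Above the median summed pileup the relative log2 ratio spreads less, with quartiles of -0.115 and 0.115 against -0.170 and 0.166 over all pairs. The background count for these 35 pairs may therefore be lower. The median relative log2 ratio was -0.018 at the chemokine pairs and 0 over all pairs, with a range of -0.58 to 0.47, and 20 pairs lay below 0, 12 above and 3 at 0. The raw pileup was lower in Tle4cKO in 35 of 35 pairs, and it was higher in WT in 90.8% of all pairs and in 98.9% of pairs with a summed pileup above the median, to which 31 of the 35 belong. The 95% counting interval of the ratio exceeded the ratio of its class in 0 of the 35 pairs and fell short of it in 0, where 0.676% and 0.620% of all pairs did. Of the 35 intervals 18 also held a ratio of 1. Pileups of 14 to 177 in Tle4cKO give wide intervals. Relative to the class, the interval was 0.804 to 1.21 at the strongest pair, over Ccl3. At a weak pair of Ccl5, with 16 in Tle4cKO and 23 in WT, it was 0.494 to 1.98. At weak pairs even a 1.5-fold difference could therefore not be told from counting error at this depth.

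**Figure D1:**
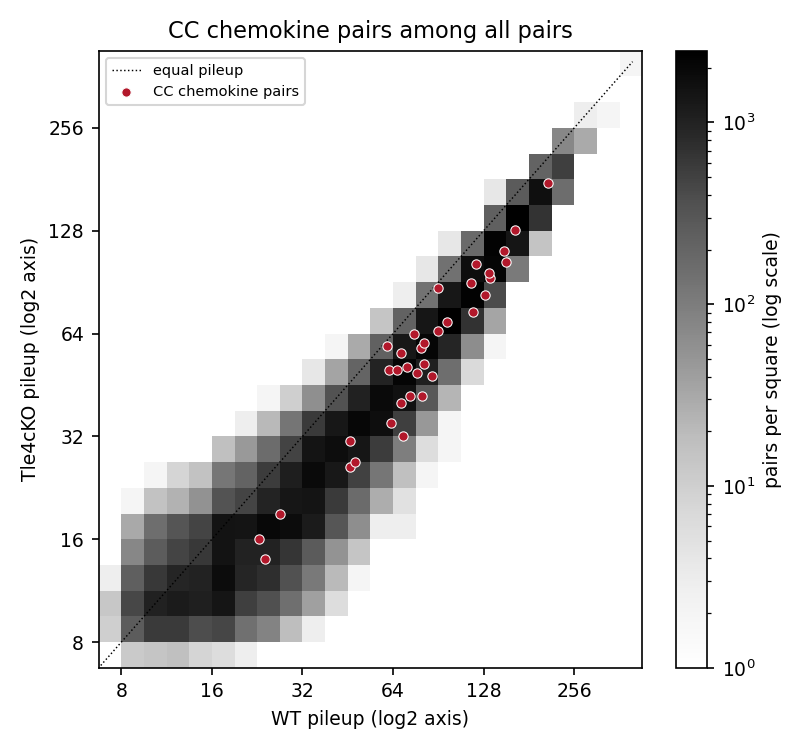
Pileup of paired peaks in Tle4cKO (y axis) against WT (x axis), both on log2 axes; grey squares count all 92328 pairs and red points are the 35 pairs at CC chemokine genes. The red points lie below the dotted line of equal pileup, within the band of the other pairs, from 14 to 177 in Tle4cKO and from 23 to 210 in WT.

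Ccl2 (82035577 to 82037452), a main ligand of CCR2 for monocytes, held 5 peaks in each library, all shared. The strongest lay across the lower end of the gene (82034917 to 82035934 in Tle4cKO, 82034977 to 82035955 in WT), with a pileup of 102 in Tle4cKO and 121 in WT. Their ratio was 0.843 (95% Clopper-Pearson interval 0.641 to 1.11), against 0.763 for pairs of like pileup. A second peak, 2417 bp below the gene in Tle4cKO and 2344 bp in WT, had a pileup of 56 in Tle4cKO and 68 in WT, and a relative log2 ratio of 0.23. In mouse cells a distal control region bound by NF-kappaB has been described some kilobases before Ccl2. Both of these peaks were slightly higher, relative to pairs of like pileup, than the 3 peaks on the far side of the gene, with intervals that overlap.

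The peak at Ccl7 (82045712 to 82047525), whose protein also binds CCR2, was the lowest of the 35 pairs relative to its class. It lay across the lower gene end (82045301 to 82046012 in Tle4cKO, 82045274 to 82046156 in WT), with a pileup of 32 in Tle4cKO and 69 in WT. The ratio was 0.464 (0.295 to 0.715), which is 1.498-fold below the 0.695 of pairs of like pileup and stays just short of the 1.5-fold threshold. Set against the single median of all pairs instead, this pair is past 1.5-fold. Its interval still holds the ratio of its class, and the Tle4cKO summit lay 172 bp from the WT summit. The peak 345 bp above Ccl7 in Tle4cKO had a pileup of 26 there and 46 in WT, with a relative log2 ratio of -0.27. Ccl2 and Ccl7 share 4 of their pairs. Within these the gene-end peak of Ccl7 lay below its class and that of Ccl2 above, with intervals that overlap.

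The protein of Ccl12 (82101845 to 82103399) binds CCR2 in the mouse. The peak across its start (82100988 to 82102376 in Tle4cKO, 82100911 to 82102406 in WT) had a pileup of 93 in Tle4cKO and 134 in WT, a ratio of 0.694 (0.527 to 0.911) against 0.763 for its class. It was the highest peak of the cluster in WT, and in Tle4cKO the peak at Ccl2 was higher. Its summits lay 350 bp and 345 bp before the start of the gene in Tle4cKO and WT, outside the stretch printed above. A neighbouring peak 1138 bp below the gene in Tle4cKO had 64 there and 75 in WT, with a relative log2 ratio of 0.26. The Tle4cKO peak was narrower, 642 bp against 1003 bp in WT. A WT peak of pileup 13 (82093237 to 82093616) overlapped no Tle4cKO peak and lay 539 bp from the nearest.

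Ccl8 (82115185 to 82116799), which in the mouse acts through CCR8, stood apart from the other members in both libraries. Its window held 0 Tle4cKO peaks and 1 WT peak, of pileup 16, inside the gene (82115587 to 82116475). This peak does not reach the start, and no peak covered the 250 bases before it. Around Ccl8 no Tle4cKO peak was listed over 33773 bp, and in WT the stretch between the neighbouring peaks was 33778 bp and held that peak alone. Of protein-coding genes of at most 20 kb, 28.2% had no Tle4cKO peak and 29.2% no WT peak in a window of the same kind.

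**Figure D2:**
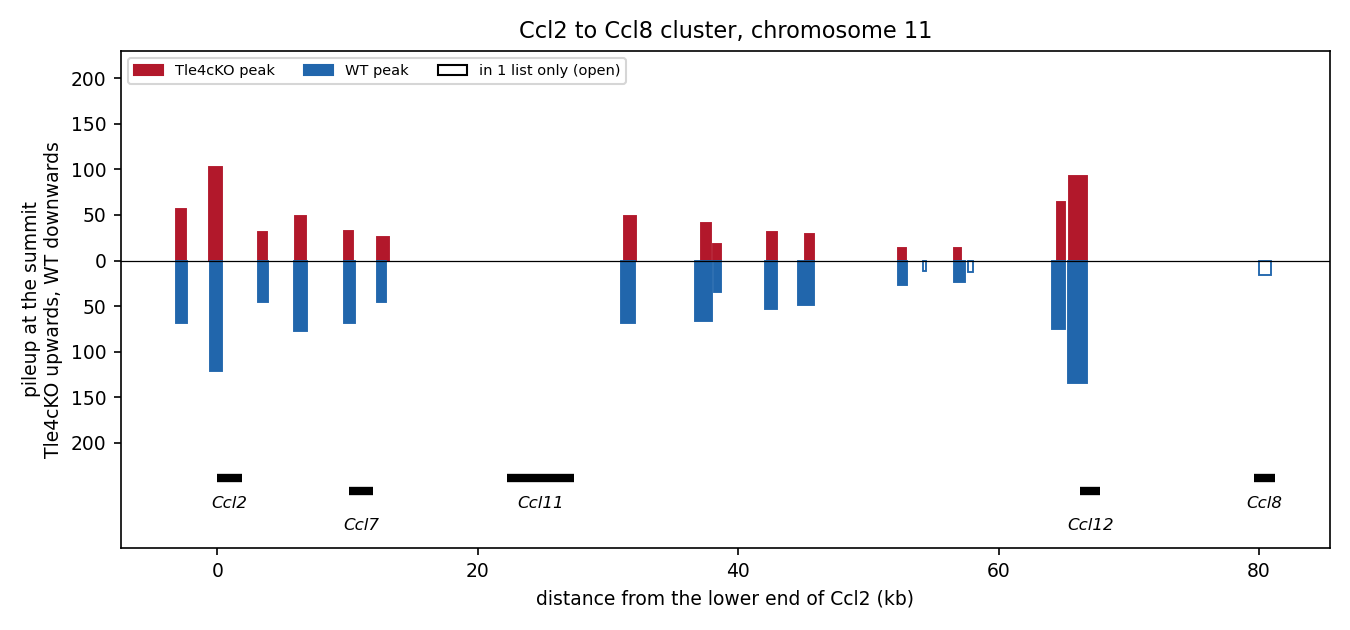
Peaks along the Ccl2 to Ccl8 cluster: x axis, distance from the lower end of Ccl2 in kb; y axis, pileup, Tle4cKO upwards and WT downwards; bars are as wide as the peaks, open bars are in 1 list, black lines are genes. Peaks of both libraries mostly stand at the same places, apart from 3 open WT bars, of which that of pileup 16 lies at Ccl8, and no bar stands at Ccl11.

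Ccl5 (83525778 to 83530518), made by T cells, NK cells and activated macrophages, held 3 of the 6 peaks found in WT alone. Its window had 5 Tle4cKO peaks and 8 WT peaks, and the 3 without a Tle4cKO partner had pileups of 20 (83527180 to 83527500) and 34 (83527895 to 83528464) inside the gene and 23 below it (83517013 to 83517634). The nearest peak of Tle4cKO was 2785, 1821 and 4467 bp away. All 3 also lie within Gm32650, a lncRNA gene that spans Ccl5. Of all WT peaks 27.1% were in 1 list. The peaks of pileup 20 and 23 are below the WT median of 28, where 50.8% of all WT peaks are in 1 list. That of 34 lies between the median and the upper quartile, where 7.44% are. The peak across the upper gene end was shared, with a pileup of 35 in Tle4cKO and 63 in WT, a ratio of 0.556 (0.357 to 0.853) against 0.695. Above the gene 3 further peaks were shared, the strongest with 112 in Tle4cKO and 150 in WT and a relative log2 ratio of -0.065. Gene-end peaks were found at 2 of 4 T cell markers in Tle4cKO and 3 of 4 in WT, and at 2 of 4 NK and ILC markers in Tle4cKO and 3 of 4 in WT. Over all 46 marker genes of other cell types 28 had such a peak in Tle4cKO and 34 in WT. Of all protein-coding genes 63.3% had one in both libraries. The cells were sorted for CD64, and a part of T or NK cells in the difference at Ccl5 was not tested.

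Ccl9 (83572917 to 83578636) and Ccl6 (83587886 to 83593087) encode CCR1 ligands of the mouse and lie next to each other, with 3 pairs in both windows. The peak across the upper end of Ccl9, its start, was among the widest of the members, 2026 bp in Tle4cKO and 2053 bp in WT. Its pileup was 96 in Tle4cKO and 133 in WT, and its summits lay 1354 bp and 1345 bp inside the gene from the start. All 6 pairs of the Ccl9 window lay at or below their class, with relative log2 ratios of -0.26 to 0 and a median of -0.23. That is the lowest median among the 9 genes with pairs. Ccl9 also held the single peak found in Tle4cKO alone, of pileup 18 (83566918 to 83567378), and a WT peak of pileup 42 (83570084 to 83570676) that overlapped none of Tle4cKO. They lay 849 and 705 bp from the nearest peak of the other library.

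At Ccl6 7 peaks were listed in each library and all were shared. The peak across its start had a pileup of 50 in Tle4cKO and 62 in WT, a ratio of 0.806 (0.544 to 1.19) against 0.692. The Tle4cKO summit lay 158 bp before the start and the WT summit 342 bp before it. Peaks 2484, 4583 and 7407 bp above the gene in Tle4cKO had pileups of 60, 51 and 52 there, against 81, 71 and 81 in WT. Their relative log2 ratios of 0.059, 0.037 and -0.13 are those of typical pairs.

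Ccl3 (83647843 to 83649378) and Ccl4 (83648624 to 83664683) encode macrophage inflammatory proteins, of which that of Ccl3 binds CCR1. They lie under the strongest peaks of the 10 genes. The peak over Ccl3 (83648148 to 83650089 in Tle4cKO, 83648075 to 83650115 in WT) had a pileup of 177 in Tle4cKO and 210 in WT. It stood at the 99.2nd percentile in both lists. The ratio of 0.843 (0.686 to 1.03) was close to the 0.854 of its class, and the summits lay 245 bp and 268 bp before the start in Tle4cKO and WT, within and just beyond the far end of the stretch printed above. A peak 6648 bp below Ccl3 in Tle4cKO, 2321 bp wide there and 2704 bp in WT, had a pileup of 129 in Tle4cKO and 163 in WT. Its summits were 3 bp apart, the closest of the 35 pairs together with 1 pair at Ccl9.

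The highest values relative to pairs of like pileup also lay here. The RefSeq span of Ccl4 joins a curated and a predicted transcript whose own ends the gene table does not give, so that a position inside the span may lie outside the curated gene. Inside this span, which is 16060 bp long and overlaps Ccl3, a peak (83657094 to 83657982 in Tle4cKO) had a pileup of 59 in Tle4cKO and 61 in WT. The next one (83658743 to 83659387) had 87 in Tle4cKO and 90 in WT. Both ratios were 0.967, with intervals of 0.665 to 1.41 and 0.712 to 1.31, and relative log2 ratios of 0.47 and 0.41. They were thus 1.38-fold and 1.32-fold above their class, below the 1.5-fold threshold and with intervals that hold the ratio of the class. Further along the span the values lay below their class. At 83662054 the list of Tle4cKO had a peak of pileup 104 followed by 1 of 81, where WT had a single peak of 152 that was 2149 bp wide, and the pair of 104 and 152 had a relative log2 ratio of -0.19. This was the only member peak that overlapped more than 1 peak of the other library, as 4.27% of all WT peaks did. The peak 949 bp above the span in Tle4cKO had 48 there and 86 in WT, a relative log2 ratio of -0.33.

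**Figure D3:**
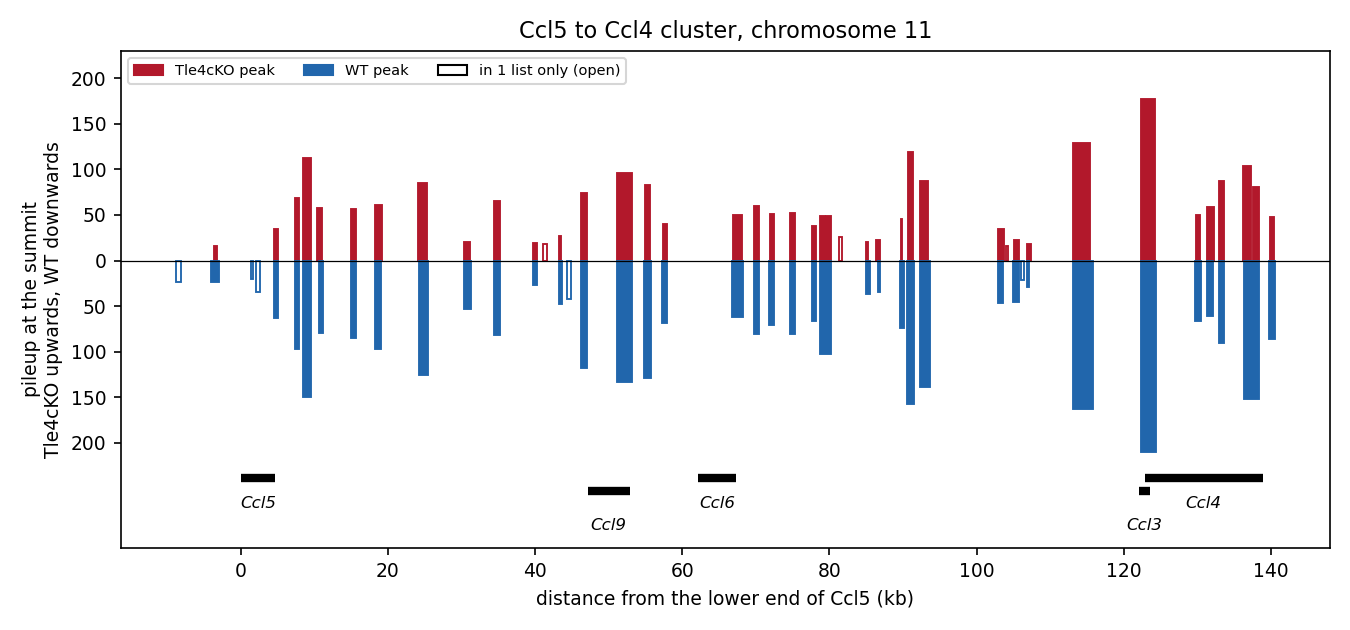
Peaks along the Ccl5 to Ccl4 cluster: x axis, distance from the lower end of Ccl5 in kb; y axis, pileup, Tle4cKO upwards and WT downwards; bars are as wide as the peaks, open bars are in 1 list, black lines are genes. The highest bars, 177 in Tle4cKO and 210 in WT, stand at Ccl3, and 3 of the open WT bars lie at Ccl5.

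Ccl24 (135569935 to 135573123), an eotaxin that binds CCR3 and attracts eosinophils, held 4 shared peaks on chromosome 5. The strongest, 737 bp below the gene in Tle4cKO (135568250 to 135569198), had a pileup of 90 in Tle4cKO and 116 in WT. The peak across the upper gene end had 65 in Tle4cKO and 90 in WT, a ratio of 0.722 (0.517 to 1.005) against 0.716, with summits 284 bp apart. The remaining peaks, 2310 and 8993 bp above the gene in Tle4cKO, had 42 and 42 there, against 73 and 80 in WT. Their relative log2 ratios of -0.27 and -0.42 were lower than those of the strongest and the gene-end peak, 0.069 and 0.013, with intervals that overlap. Eosinophils are removed by the Siglec-F gate, and 2 of 4 eosinophil markers, Siglecf and Ccr3, had a gene-end peak in each library. Of all protein-coding genes 63.3% had one in both.

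The genes could not be ordered by their gene-end peaks beyond counting error. Of the 35 pairs 8 lay across an annotated end. By its annotated span Ccl4 has none of its own, because the peak across the lower end of the span is the one over Ccl3. The start of its curated transcript is not given, so that a peak there could not be placed in this order. In rising order of the relative log2 ratio these were Ccl7 (-0.58), Ccl5 (-0.32), Ccl12 (-0.14), Ccl9 (-0.081), Ccl3 (-0.018), Ccl24 (0.013), Ccl2 (0.14) and Ccl6 (0.22). The intervals of all 8, relative to their classes, shared the range from 0.840 to 1.03, so that neighbours in this order cannot be told apart at this depth. Their median was -0.050, beside -0.018 for the 27 pairs elsewhere in the windows. By gene, the median over the window was 0.11 at Ccl3, 0 at Ccl2, -0.0046 at Ccl4, -0.018 at Ccl5, -0.081 at Ccl6, -0.13 at Ccl24, -0.14 at Ccl12 and Ccl7 and -0.23 at Ccl9.

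**Figure D4:**
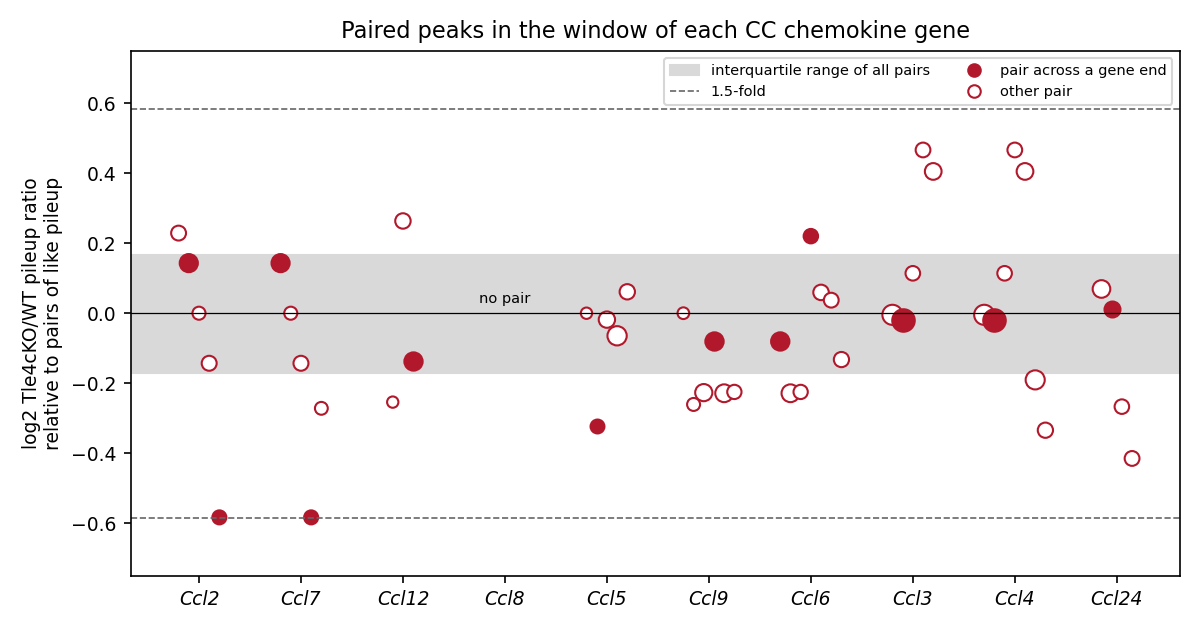
Relative log2 ratio of Tle4cKO to WT pileup (y axis) for each pair in the window of each gene (x axis, in order along the clusters); filled points lie across a gene end, point size grows with summed pileup, and pairs shared by neighbouring genes appear at both. No point passes the dashed lines of 1.5-fold; the lowest, at -0.58, is the peak at the end of Ccl7, and the highest, at 0.47, lies in the span of Ccl4.

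Widths and summits at the CC chemokine genes were close to those of other pairs of their strength, apart from the absolute width. The median width of the paired peaks was 712 bp in Tle4cKO and 828 bp in WT. The median ratio of widths was 0.929, beside 0.931 for all pairs and 0.956 for pairs with a summed pileup above the median. The WT peak was wider in 25 of 35 pairs, in 69.5% of all pairs and in 69.9% of those above the median. For their strength the chemokine peaks were narrow, since pairs with a summed pileup above the median had median widths of 1002 bp in Tle4cKO and 1087 bp in WT. The summits of a pair lay a median of 25 bp apart, against 44 bp for all pairs and 24 bp for the pairs above the median. They were within 50 bp in 26 of 35 pairs and over 150 bp apart in 5, at Ccl24 and Ccl6 and near Ccl2, Ccl7 and Ccl9, with 291 bp at a Ccl9 peak as the largest. Of all pairs 53.5% were within 50 bp and 27.5% over 150 bp apart, and of the pairs above the median 68.1% and 18.0%. The 37 Tle4cKO peaks covered 31597 bp and the 41 WT peaks 37716 bp.

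**Figure D5:**
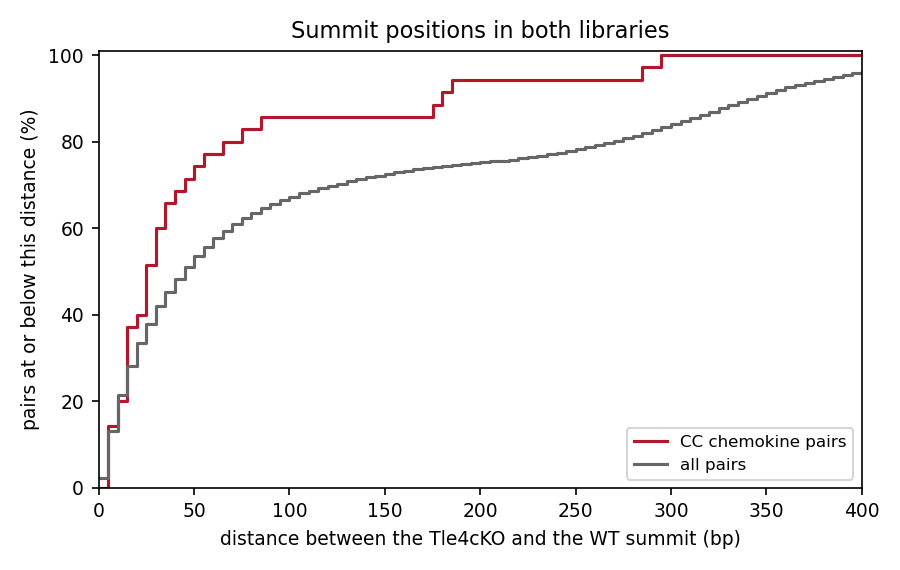
Share of pairs (y axis, %) whose Tle4cKO and WT summits lie at or below a given distance (x axis, bp), for the 35 CC chemokine pairs and for all pairs. The chemokine curve lies above that of all pairs over most of the range, with medians of 25 bp and 44 bp.

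Both clusters were dense in accessible regions, the second more than the first. The interval from 10 kb below Ccl5 to 10 kb above Ccl4 (83515778 to 83674683) held 42 Tle4cKO peaks and 42 WT peaks, or 2.64 per 10 kb in each. The interval from 10 kb below Ccl2 to 10 kb above Ccl8 (82025577 to 82126799) held 15 Tle4cKO and 18 WT peaks, or 1.48 and 1.78 per 10 kb. Windows of protein-coding genes of at most 20 kb had a median of 0.884 per 10 kb in Tle4cKO and 0.913 in WT. The widest stretch without a peak in either library was 17828 bp in the first cluster, from 82048745 to 82066572, and it holds Ccl11, which encodes eotaxin. In the second cluster it was 9206 bp, from 83619467 to 83628672.

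Between the gene windows the pairs of both clusters mostly lay below their class. Of 21 such pairs 18 were below their class, with a median relative log2 ratio of -0.20. Over all pairs the median is 0 by construction, with about as many below as above, and the quartiles were -0.170 and 0.166. Whether these neighbouring pairs differ from other stretches of the genome was not tested. In the first cluster these were 5 of 6 pairs with a median of -0.21, beside 5 of 9 and -0.14 within the windows. In the second they were 13 of 15 with a median of -0.19, beside 13 of 22 and -0.018 within the windows. The single pair of either cluster past 1.5-fold was among them, between Ccl5 and Ccl9 (83556159 to 83556882 in Tle4cKO), with a pileup of 20 in Tle4cKO and 53 in WT. Its ratio was 0.377 (0.214 to 0.642) against 0.674, an interval that lies below its class. A WT peak of pileup 102 (83604538 to 83606027), which faces a Tle4cKO peak of 49, also had its interval below the class, with a ratio of 0.480 (0.334 to 0.682) against 0.716. A second Tle4cKO peak overlaps the same WT peak there. Of the 21 pairs 1 was past 1.5-fold lower, where 3.67% of all pairs were, a count close to that share. Intervals below the class were found for these 2 pairs, where 0.620% of all pairs had one. Over the whole intervals the median relative log2 ratio was -0.15 in the first cluster (15 pairs) and -0.13 in the second (37 pairs).

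At 11 other CC chemokine genes 6 of 43 Tle4cKO peaks and 4 of 42 WT peaks were found in 1 library alone, beside 23.5% and 27.1% of all peaks. Of these genes, Ccl28, a mucosal chemokine, had more peaks in Tle4cKO alone (4, with pileups of 9 to 16) than in WT alone (2, of 11 and 16), and the other 10 were balanced. These Tle4cKO peaks of Ccl28 are below the median pileup, where 45.6% of all Tle4cKO peaks are in 1 list. No peak was listed within the windows of Ccl19, Ccl20 and Ccl21a. Ccl19, Ccl21a and Ccl27a have close copies on chromosome 4, so that reads there may not be placed with certainty. Ccl26 lies beside Ccl24 and shares its strongest peak, and its median relative log2 ratio, 0.013, is that of the gene-end pair of Ccl24. The windows of Ccl26 and Ccl11 thus hold pairs also counted at the members, so that this list is not a separate set. The 36 pairs of this list had a median relative log2 ratio of -0.11, with 0 past 1.5-fold higher and 1 lower, beside 3.76% and 3.67% of all pairs. The lower pair lay near Ccl22, a ligand of CCR4, with a pileup of 20 in Tle4cKO and 45 in WT.

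At 14 receptor genes of CC chemokines 10 of 75 Tle4cKO peaks and 12 of 76 WT peaks were in 1 list, beside 23.5% and 27.1% of all peaks. Of these genes 2 had more peaks in Tle4cKO alone and 4 more in WT alone. Ccr4 held 3 peaks in Tle4cKO alone, of pileup 8, 9 and 17, and 0 in WT alone, and these too are below the median pileup. Ccr9, a gut-homing receptor of lymphocytes, held 1 in Tle4cKO alone, of pileup 11, and 3 in WT alone, of 10, 11 and 15. Ccrl2, which binds chemerin, held 0 and 2, the latter of pileup 27 and 44. Of the peaks at Ccr9 and Ccrl2, all but that of 44 are below the median of their list. Below the WT median of 28, 50.8% of all WT peaks are in 1 list. No peak was listed at Ackr4. The 62 pairs had a median relative log2 ratio of 0, with 0 higher and 4 lower past 1.5-fold, beside 3.76% and 3.67% of all pairs. Of the 4, 2 lay at Ccr3, 1 at Ackr2 and 1 at Ccr1, the last with low pileups of 8 in Tle4cKO and 15 in WT. Ccr1, Ccr3 and Ccr2 lie close together on chromosome 9. Ccr2, the receptor of Ccl2, Ccl7 and Ccl12, held 6 Tle4cKO and 7 WT peaks, 1 of each in 1 list alone, both of pileup 23, and a median relative log2 ratio of 0.20 over 5 pairs.

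The 7 other genes annotated between the outer members of the clusters are Ccl11, the pseudogenes Ccl16-ps and Rpl9-ps1 and 4 lncRNA genes. At these genes 3 of 46 Tle4cKO peaks and 6 of 48 WT peaks were in 1 list, beside 23.5% and 27.1% of all peaks. Many of these peaks are member peaks again, so that the counts are not a separate set. The strongest peak at Rpl9-ps1, 177 in Tle4cKO and 210 in WT, is the one over Ccl3. The peaks in 1 list at Ccl16-ps, 18 in Tle4cKO and 42 in WT, are those at Ccl9. Gm32650 had 0 peaks in Tle4cKO alone and 4 in WT alone, 3 of them those at Ccl5. E230016K23Rik, which spans Ccl6 and runs on towards Ccl3, had 2 in Tle4cKO alone, of pileup 16 and 26, and 1 in WT alone, of 21. Gm38933 shares the Tle4cKO peak of 26.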

How the data were processed

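The deposited data were 1 peak list per library, with position, width, summit and pileup signal per peak. The pileup is the authors' deposited signal, which the values show as whole numbers with a minimum of 7, per the file headers. Per the submitters' processing notes, the tools were MACS2 2.1.1, HOMER 4.7.2, cutadapt 1.14, edgeR 3.28.1, Bowtie2 2.2.5 and featureCounts 1.5.0 and the build mm10, with no role or order. Thresholds, read shifting, duplicates, read totals and scaling are stated in none of the sources read, so depth is known from the pileups only, and pileups without read totals cannot be scaled.

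Peaks were shared at an overlap of at least 1 bp (checked with bedtools 2.31.1). Ratios have 95% exact Clopper-Pearson intervals and shares Wilson intervals (scipy 1.17.1), for counting error only. A summit pileup is a maximum and the unit it counts is not stated, so the intervals of ratios are approximate. A fold of 1.5 relative to pairs of like pileup replaced a test. Pairing, peaks found in 1 list and the 1.5-fold calls were run on simulated lists made from the WT peaks at unchanged positions, with changes in pileup planted at strong peaks only. Shifted or split peaks and changes at weak peaks were not simulated, so that this checks the calculation alone. Gene positions came from RefSeq (GRCm38.p6), which gives gene ends without exons. Named were all members, up to 4 genes per list with the largest difference in peaks found in 1 list (ties at 1 among receptors were left out), genes without peaks, Ccr2 as a receptor of members (chosen after its values were seen), each gene's strongest pair and pairs past 1.5-fold. The members and lists were chosen with earlier results of these data known.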

Additional observations from a re-analysis of the deposited data

How the results depend on the processing

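The analysis rests on 1 library per genotype, so no replicate could be left out. No paired analysis was possible because each genotype has 1 library. Over 8 alternatives 42 values were recomputed, and 30 stayed within 1.5 times the count, or within the binomial interval of the median, as reported. With the gene spans alone the peaks numbered 13 in Tle4cKO and 15 in WT, of which 0 and 3 were in 1 list, with median widths of 889 bp and 883 bp. With 50 kb on either side there were 93 and 97 peaks, of which 5 and 13 were in 1 list. Of 84 pairs 3 were then past 1.5-fold lower, beside 3.67% of all pairs. These shifts follow from the changed intervals. Relative to the median ratio of all pairs, 1 pair was past 1.5-fold lower, the peak at the end of Ccl7, and none higher. The median relative log2 ratio ranged from -0.14 to -0.0029 over its 6 alternatives. A pileup minimum of 15, counting nearby peaks as shared, or a stricter overlap of the narrower peak gave counts of 1 in Tle4cKO alone and 6 in WT alone. At that minimum the 6 are not the same peaks, because the Ccl12 peak of pileup 13 drops out and a Ccl12 peak whose pair has a pileup of 14 in Tle4cKO and 24 in WT is counted in WT alone.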
